A study of Bos taurus with 8 samples.

Results

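The genes described here are the subunits of the proteasome and the factors that assemble, activate or inhibit it. They were taken as all genes whose name on the array began with PSMA, PSMB, PSMC, PSMD, PSME, PSMF or PSMG and a digit, leaving out PSMB8 and PSMB9. This gave 45 genes of 25766 named genes on the array, each represented by its brightest probe. All 45 were kept by the filter on dim probes, which 18125 of the 25766 genes passed. They comprised 7 genes of the 20S alpha ring, 7 of the 20S beta ring, PSMB10 and PSMB11 as beta subunits of special proteasomes, 6 ATPases and 11 other subunits of the 19S regulator, 3 assembly chaperones of the 19S regulator, 4 of the 20S core, 3 activators and the inhibitor PSMF1. The last gene, PSMC3IP, met the rule by its letters but encodes a partner of PSMC3 known from meiotic recombination, not a subunit, and it enters neither the 20S nor the 19S group below.

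RNA was measured on 2-colour Agilent arrays in mammary gland of 8 Holstein Friesian dairy cows, all healthy and lactating. Milk yield was high in 4 of them (on average 11097 kg per lactation) and low in the other 4 (on average 6956 kg). The cows were hybridised in 4 pairs of unlike yield and like lactation, each on 2 arrays of opposite dye, which gave 8 arrays. Pairs 1 and 2 were in lactation II and lay on slide 1, and pairs 3 and 4 were in lactation IV and lay on slide 2, so that lactation and slide cannot be told apart. No treatment, genotype, age or day of lactation was stated in the sources used here, and the RNA came from 1 gland part per cow.

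The proteasome is the large protease that degrades proteins marked with ubiquitin. Its 20S core is a barrel of stacked rings, in which the outer alpha rings form the gate and the inner beta rings hold the proteolytic sites. The 19S regulator caps the barrel, binds and deubiquitinates substrates with its non-ATPase subunits, and unfolds them with a ring of ATPases. Immune cells and interferon-treated cells exchange catalytic subunits for inducible ones such as PSMB10, and the PA28 activator made of PSME1 and PSME2 favours peptides for antigen presentation. In a secretory tissue such as the lactating gland, proteasomes also clear misfolded proteins exported from the endoplasmic reticulum.

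The measurement of each gene rested on a probe of 60 bases, and the probes differed in how much support other probes gave them. The first 30 bases of the probes of the 6 genes on which the results below turn are shown first, because these sequences are what the values measure.

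PSMB5: ctctgatgcattgacctccatgtgttacca

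PSMB2: tttttctactcttttgatgtgtgctttcca

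PSMB10: tgaaaagatccacttcatcgcccccaaaat

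PSMD13: actgcacccacatgtgtgaatggcttctcc

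PSMD14: gtctccattgtgcaattacttctatttctt

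PSMG2: tataccttacttcccaagatgcttactacc

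On build Btau_3.1, as the scanner files give it, the PSMB5 probe lay at chr10:22117089-22117148, PSMB2 at chr3:117388977-117389036, PSMD14 at chr2:36107555-36107614 and PSMG2 at chr24:44681229-44681288. The PSMB10 probe lay at chr18:34441558-34441728, a span longer than the probe itself. The files gave no position for PSMD13, and exon and intron annotation of that build was not used here. PSMB5 and PSMB10 each had 1 probe, so no other probe bears on their values.

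PSMA7 and PSMC4 had probes that overlapped without a mismatch, which show how closely the same transcript sequence was measured from different spots. The PSMA7 probes shared 53 bases, in capitals here as far as the printed 30 bases reach.

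PSMA7, probe used: gcgtttcCATTCCACTTATCCATACTGTCC

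PSMA7, overlapping probe: CATTCCACTTATCCATACTGTCCAAGTGTC

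Their log2 ratios in the 4 pairs differed by at most 0.11. The probes of PSMC4 had the same 60 bases and differed by at most 0.07. Among the 29 genes with several kept probes, all probes had the same sign of the mean ratio in 18 and the same sign of the difference between lactations in 24. At least 1 other kept probe had the opposite sign of the mean for 11 genes (PSMA4, PSMA7, PSMB2, PSMB4, PSMB7, PSMC5, PSMD3, PSMD8, PSMF1, PSMG3 and PSMG4) and the opposite sign of the difference for 5 (PSMA2, PSMB4, PSMC3, PSMD13 and PSME4). Signs and counts below are those of the brightest probe.

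Values below are log2 ratios of the high-yield over the low-yield cow, on which 1 stands for a doubling, averaged over the 2 arrays of a pair. Means are over the 4 pairs (n = 4, separate cows), with the standard error (SE) of limma's moderated test and its p adjusted over all 18125 genes (Benjamini-Hochberg). The pairs were not alike in quality. For pairs 1 to 4, the correlation between the dye-swapped arrays over the brightest probes of the 18125 genes kept was 0.795, 0.328, 0.681 and 0.305. This is a description only, since probes are not replicates. Ratios of pair 1 correlated with those of pair 4 at -0.353 over all genes, with the direction taken from the dyes in the labels. The low-yield cow of pair 1 stood apart: the summed level of 7 milk protein genes was 15.64 there on the log2 scale and at least 20.50 in the other low-yield cows, so values without pair 1 are given beside the main results. Leaving out pair 1 changed the sign of the mean for 11 of the 45 genes and of the difference between lactations for 4 (PSMD9, PSMG1, PSMG4 and PSMC3IP).

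Between high-yield and low-yield cows, no proteasome gene passed the test. At an adjusted p of 0.05, limma called 0 of the 45 genes and 0 of all 18125 genes (0%). At an unadjusted p of 0.05 it listed 1 of the 45, PSMD13, beside 967 of all genes (5.34%). The ratio was above 0 in 4 of 4 pairs for 5 proteasome genes, against 8.31% of all genes, and below 0 in 4 of 4 pairs for 3, against 8.97% of all genes. These shares were near the background or, for 5 of 45, slightly above it. The mean was below 0 for 31 of the 45 genes, beside 9052 of all 18125 genes. The median of the 45 genes was -0.09, while the median of all genes was near 0. In bulk tissue, fewer cells of a type and less RNA per cell cannot be told apart.

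**Figure D1:**
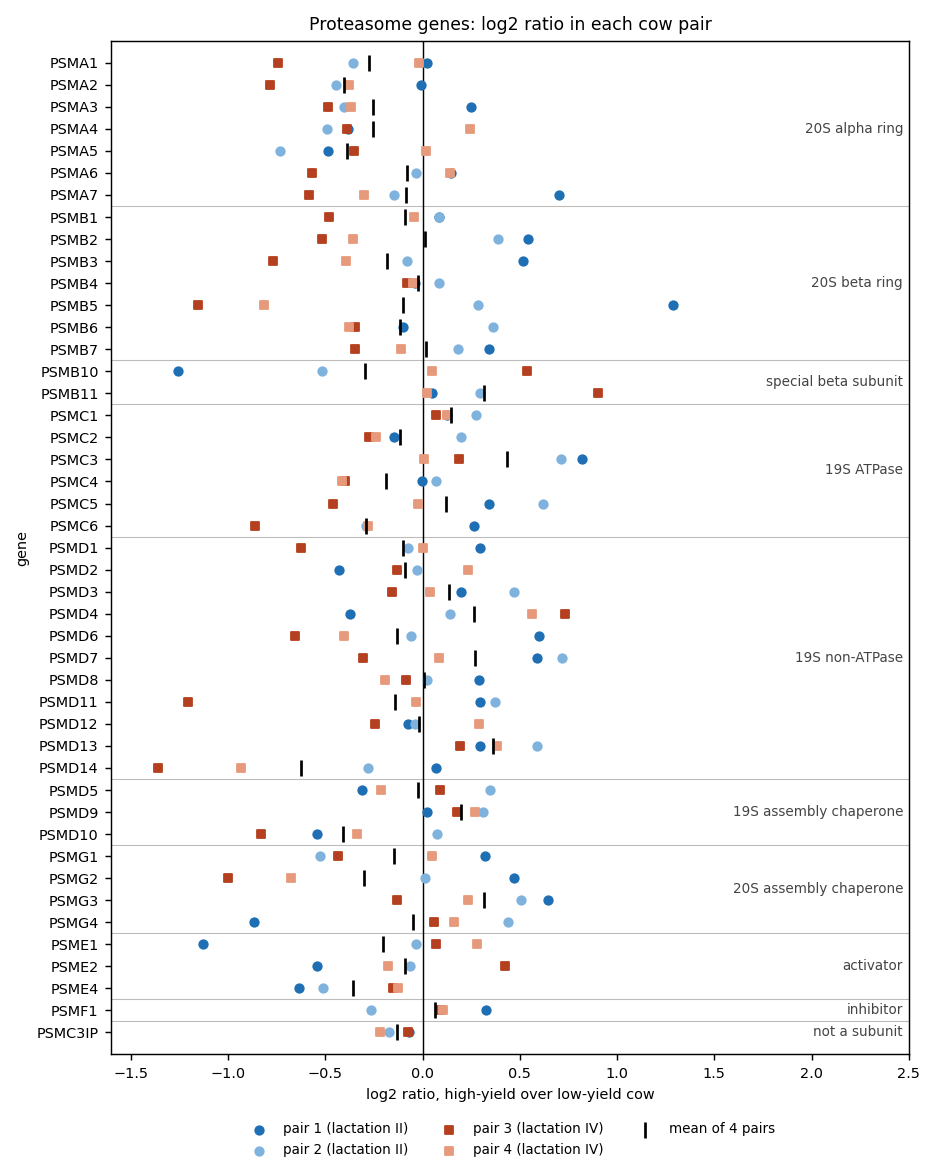
Log2 ratio of the high-yield over the low-yield cow (horizontal axis) for each of the 45 proteasome genes, grouped by role. Circles are the pairs in lactation II, squares the pairs in lactation IV, and black bars the mean of 4 pairs; the squares of the 7 beta ring genes lie to the left of 0 and of their circles, except that the PSMB4 values nearly coincide.

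The alpha ring had the lowest median of the large groups, -0.26, with a mean below 0 in 7 of 7 genes by their brightest probes. For PSMA4 and PSMA7, another kept probe had a mean above 0, of 0.12 and 0.023. PSMA2, a structural alpha subunit, had the lowest mean of the ring. Its ratios were -0.01, -0.45, -0.78 and -0.38 in pairs 1 to 4, with a mean of -0.40 ± 0.32 (SD, n = 4; limma SE 0.17, adjusted p = 0.791). Every pair lay below 0, pair 1 by very little, and the other kept PSMA2 probe had a mean of -0.20. PSMA5, also a structural subunit, had ratios of -0.49, -0.73, -0.35 and 0.02 (mean -0.39, limma adjusted p = 0.791). PSMA6 had the mean nearest 0, with ratios of 0.15, -0.03, -0.57 and 0.14, where the value of pair 4 came from 1 array because the other spot was an outlier. The ring's median by pair was 0.02, -0.41, -0.57 and -0.02, so the low values lay in pairs 2 and 3. In pairs 2 and 3, 0 of 7 alpha genes had a ratio above 0, beside 54.8% and 48.7% of all genes.

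PSMA3 had ratios of 0.25, -0.41, -0.49 and -0.37, and pair 1 was its only positive pair. PSMA4 had ratios of -0.38, -0.49, -0.39 and 0.24, and there pair 4 was the only positive one. PSMA1 (0.02, -0.36, -0.74 and -0.02) and PSMA7 (0.70, -0.15, -0.59 and -0.30) were lowest in pair 3, as was PSMA2.

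Beta ring genes had means close to 0, from -0.18 for PSMB3 to 0.02 for PSMB7, with a median of -0.09. This closeness came from pairs of opposite sign. The median of the ring was 0.34 in pair 1 and 0.18 in pair 2, but -0.48 in pair 3 and -0.36 in pair 4. In pairs 3 and 4, 0 of 7 beta genes had a ratio above 0, whereas 5 of 7 did in pair 1 and 6 of 7 in pair 2. Of all genes, 46.0%, 54.8%, 48.7% and 50.3% had a ratio above 0 in pairs 1 to 4. The sign of pair 4 rested on 1 array: the ring median was -0.67 with the high-yield cow in Cy5 and 0.17 with it in Cy3, and 1 of 7 genes had the same sign on both. In pair 1 the ring median was -0.02 with the high-yield cow in Cy5 and 0.56 with it in Cy3, and 4 of 7 genes had the same sign on both.

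The catalytic subunits showed this split with different sizes. PSMB5, which carries the chymotrypsin-like site, had ratios of 1.29, 0.29, -1.15 and -0.81 (mean -0.10, SD 1.11). Its level (log2 intensity) in pair 1 was 12.82 for high and 11.53 for low yield, and in pair 3 it was 11.78 and 12.93. The high-yield cows of lactation II thus lay above their partners and those of lactation IV below them. PSMB7, which carries the trypsin-like site, had ratios of 0.34, 0.18, -0.35 and -0.11. PSMB6, which carries the caspase-like site, had ratios of -0.10, 0.36, -0.35 and -0.38, and its pair 1 did not share the positive sign.

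Among the structural beta subunits, PSMB2 had ratios of 0.54, 0.39, -0.52 and -0.36 and PSMB3 of 0.52, -0.08, -0.77 and -0.39. PSMB1 had ratios of 0.08, 0.09, -0.48 and -0.05. PSMB4 was the steadiest gene of the ring, with ratios between -0.08 and 0.08 (SD 0.07).

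**Figure D2:**
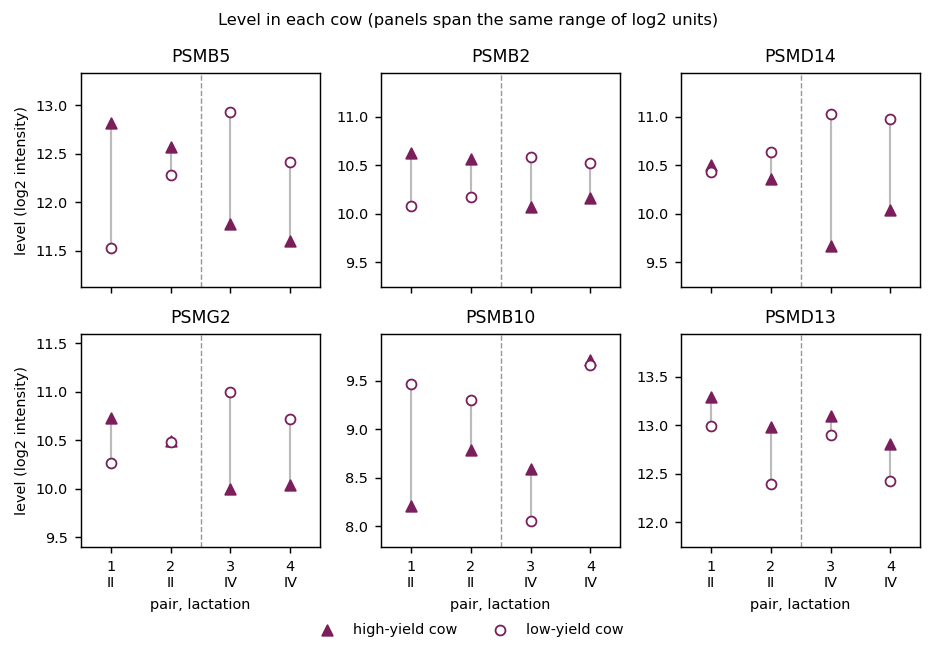
Level of 6 proteasome genes in each of the 8 cows (vertical axis, log2 intensity rebuilt from the arrays) by pair and lactation. Filled triangles are high-yield cows and open circles low-yield cows, joined by a line within a pair; for PSMB5, PSMB2 and PSMG2 the triangle lies above or at the circle in lactation II and below it in lactation IV, and for PSMD13 it lies above in 4 of 4 pairs.

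PSMB10, the interferon-inducible subunit that replaces PSMB7, ran the other way. Its ratios were -1.26, -0.52, 0.54 and 0.05, so the high-yield cow was lower in both pairs of lactation II and higher in both of lactation IV. The levels of its 8 cows overlapped widely, between 8.20 and 9.71 in high-yield and between 8.05 and 9.66 in low-yield cows. PSMB11, the subunit of the thymus, was dim. It had ratios of 0.05, 0.30, 0.90 and 0.03, and it was well above background in 7 of the 8 channels of high-yield cows and in 8 of 8 of low-yield cows.

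The ATPases of the 19S base had a median mean of 0.00108 and no common direction. PSMC3 was the highest of them, with ratios of 0.82, 0.71, 0.19 and 0.01 (mean 0.43 ± 0.39, SD; limma SE 0.19, adjusted p = 0.791). All 4 pairs were above 0, the last by almost nothing, and the other kept PSMC3 probe had a mean of 0.03 and a ratio of -0.33 in pair 1. PSMC1 had small positive ratios of 0.13, 0.27, 0.07 and 0.12. PSMC6 was the lowest ATPase, with ratios of 0.26, -0.29, -0.86 and -0.28. PSMC2, PSMC4 and PSMC5 had means between -0.19 and 0.12.

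PSMD13, a lid subunit of the 19S regulator, was the gene nearest to a call for yield. Its ratios were 0.29, 0.59, 0.19 and 0.38, with a mean of 0.36 ± 0.17 (SD, n = 4), a fold of 1.29 (limma SE 0.14, adjusted p = 0.791). High-yield cows were higher in 4 of 4 pairs, but their levels, from 12.80 to 13.29, overlapped those of the low-yield cows, from 12.39 to 12.99. The other kept probes of PSMD13 had means of 0.21 and 0.14, and the first of them had a ratio of -0.12 in pair 1. With the probe used, the Cy5 arrays of the high-yield cow gave 0.011 in pair 1 and 0.006 in pair 4. The Cy3 arrays of these pairs gave 0.58 and 0.76. The unadjusted p was under 0.05 in 5 of 14 alternative settings, with a mean between 0.18 and 0.55 over them.

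PSMD14, the deubiquitinase of the lid that removes ubiquitin chains, had the lowest mean of the 45 genes. Its ratios were 0.07, -0.28, -1.36 and -0.93 (mean -0.63 ± 0.64, SD; limma SE 0.27, adjusted p = 0.791). The values lay far lower in lactation IV than in lactation II. PSMD4, a ubiquitin receptor, had ratios of -0.37, 0.14, 0.73 and 0.56, the opposite order. Its other 3 kept probes had means of 0.24, 0.04 and 0.13. The remaining non-ATPase subunits PSMD1, PSMD2, PSMD3, PSMD6, PSMD7, PSMD8, PSMD11 and PSMD12 had means between -0.14 and 0.27, and the other kept PSMD3 probe had a mean of -0.16 against 0.14. PSMD11, a scaffold subunit of the lid, had the widest range of these, with ratios of 0.30, 0.37, -1.21 and -0.04.

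Of the chaperones that assemble the 19S base, PSMD9 was above 0 in 4 of 4 pairs (0.02, 0.31, 0.18 and 0.27; limma adjusted p = 0.794). PSMD10, known as gankyrin, was below 0 in 3 of 4 pairs (-0.54, 0.07, -0.83 and -0.33; limma adjusted p = 0.791), and PSMD5 had a mean of -0.02. Of the chaperones that assemble the alpha ring, PSMG3 was highest, with ratios of 0.65, 0.51, -0.13 and 0.23, and its other kept probe had a mean of -0.18. PSMG2 was lowest, with ratios of 0.47, 0.01, -1.001 and -0.68. PSMG1 and PSMG4 had means of -0.15 and -0.05, and that of PSMG4 was 0.22 without pair 1.

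Each activator gene had a mean below 0. PSME4, the PA200 activator, was below 0 in 4 of 4 pairs, with ratios of -0.64, -0.51, -0.15 and -0.13 (mean -0.36; limma SE 0.16, adjusted p = 0.791). Its other 3 kept probes had means of -0.33, -0.31 and -0.11. The PA28 genes PSME1 and PSME2 rested on pair 1. PSME1 had ratios of -1.13, -0.03, 0.07 and 0.28, and its mean of -0.20 became 0.11 without pair 1. The swapped arrays of PSME1 differed in sign in pairs 2 to 4. They gave 0.53, 0.87 and 1.22 with the high-yield cow in Cy5 and -0.60, -0.73 and -0.66 with it in Cy3. PSME2 had ratios of -0.54, -0.07, 0.42 and -0.18, and its mean of -0.09 became 0.06 without pair 1. PSMF1, the inhibitor PI31, had ratios of 0.33, -0.27, 0.09 and 0.11, and PSMC3IP, well above background in 4 of 8 channels of high-yield cows, had ratios between -0.22 and -0.07.

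The 20S core and the 19S regulator were compared as groups, described by their medians and without a test, since genes of a group are not replicates. The 20S core (16 genes) had a median mean ratio of -0.11, with 13 of 16 genes below 0. The 19S regulator (17 genes) had a median of -0.02, with 9 of 17 below 0, beside 9052 of all 18125 genes. Both medians were small beside the spread between pairs: without pair 3 they were 0.0070 and 0.07, and in the authors' deposited values the 19S median was 0.018. By pair, the medians of the 20S core were 0.07, -0.06, -0.48 and -0.08. Those of the 19S regulator were 0.26, 0.14, -0.28 and close to 0 in pair 4. The 19S median lay above the 20S median in each of the 4 pairs, by 0.20, 0.20, 0.21 and 0.08, while both groups moved together from pair to pair.

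The gap between the groups depended on the dye in lactation IV. With the high-yield cow in Cy5, the 19S median exceeded the 20S median by 0.18, 0.21, 0.39 and 0.56 in pairs 1 to 4. With the high-yield cow in Cy3 it did so by 0.22 in pair 1 and 0.04 in pair 2, and lay below it by 0.10 in pair 3 and 0.12 in pair 4. The 20S median of pair 4 was -0.56 on the array with the high-yield cow in Cy5 and 0.12 on the other. The swapped arrays of pair 4 had the same sign for 3 of the 16 core genes, beside 53.7% of all genes. In pair 3 they did so for 14 of the 16, beside 72.2% of all genes. In pair 1 they did so for only 8 of the 16, beside 71.9% of all genes, and in pair 2 for 12, beside 57.7%. PSMA6 had a value on 1 array only in pair 4, so it could not be compared there and counts as not the same. Values of pairs 1 and 4 for the core are therefore less certain than those of pair 3.

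**Figure D3:**
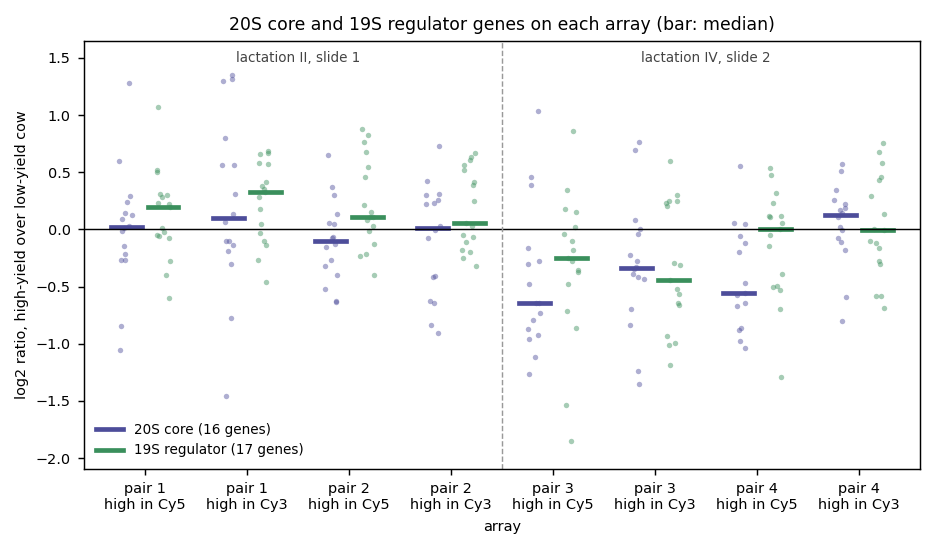
Log2 ratio of the high-yield over the low-yield cow (vertical axis) on each of the 8 arrays, for the 16 genes of the 20S core and the 17 of the 19S regulator; dots are genes and bars are group medians. The core lies lowest on the Cy5 arrays of pairs 3 and 4, at -0.64 and -0.56, and at 0.12 on the Cy3 array of pair 4.

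The second comparison asked whether the yield ratio differed between lactation IV and lactation II, with 2 pairs each. No proteasome gene passed this test. At an adjusted p of 0.05, limma called 0 of 45 and 0 of all 18125 genes (0%). At an unadjusted p of 0.05 it listed 5 of the 45, beside 1353 of all genes (7.46%): PSMB5, PSMB2, PSMD14 and PSMG2 were lower in lactation IV and PSMB10 higher. Both pairs of lactation IV lay below both of lactation II for 21 of the 45 genes, beside 20.3% of all genes. Both lay above for 5 of the 45, beside 20.4% of all genes. The first of these counts was more than the background share and the second less. The median difference of the 45 genes was -0.29, and that of all genes was 0.05.

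Of these 21 genes, 7 belonged to the beta ring (of its 7), 5 to the ATPases (of 6), 6 to the other 19S subunits (of 11), 2 to the chaperones of the 20S core (PSMG2 and PSMG3, of 4) and 1 to the alpha ring (PSMA7, of 7). The 5 genes of the opposite order were PSMA5, PSMB10, PSMD4, PSME1 and PSME4. The median difference was -0.49 for the beta ring, -0.50 for the ATPases, -0.39 for the non-ATPase subunits and -0.27 for the alpha ring. The 20S core had a median of -0.35 (12 of 16 below 0) and the 19S regulator of -0.42 (14 of 17 below 0). Of all genes, 46.1% had a difference below 0. Without pair 1 the median of the 19S regulator was -0.46, but that of the 20S core was -0.16, and without pair 4 the core's was -0.56. The core's median was -0.59 from the arrays with the high-yield cow in Cy5 and -0.037 from those with it in Cy3. The beta ring difference was below 0 in 7 of 7 genes in each of 14 alternative settings. Those with another probe filter or with naming by accession left the ring's median unchanged, so their agreement was fixed in advance. Slide and lactation cannot be told apart here, and a difference between slides would enter these values.

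PSMB5 had the largest difference of the 45 genes. Its ratios of 1.29 and 0.29 in lactation II and -1.15 and -0.81 in lactation IV gave a difference of -1.77 (limma SE 0.45, adjusted p = 0.651). The high-yield cow was 1.73-fold higher on average in lactation II and 1.98-fold lower in lactation IV. The groups of pairs did not overlap, and the difference was -1.27 without pair 1. Its unadjusted p was under 0.05 in 13 of 14 alternative settings, with values from -2.27 to -1.27. The exception was the fit without pair 3, where the difference was -1.602.

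PSMB2 differed by -0.90 (limma SE 0.30, adjusted p = 0.651). Its other kept probe, elsewhere in the transcript, gave -0.29, and the unadjusted p was under 0.05 in 3 of 14 settings. PSMB3 differed by -0.80 (-0.50 without pair 1), PSMB6 and PSMB7 by -0.49 each, PSMB1 by -0.35 and PSMB4 by -0.09. The other kept PSMB4 probe gave 0.036, so the common sign of the ring holds for the brightest probes.

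PSMD14 differed by -1.04 (limma SE 0.34, adjusted p = 0.651), and its other kept probe gave -1.17. The high-yield cow was 2.22-fold lower in lactation IV and 1.08-fold lower in lactation II. PSMG2 differed by -1.08 (limma SE 0.34, adjusted p = 0.651), and its other kept probes gave -1.10 and -0.80. For both genes, separate probes gave differences of like size, and the differences without pair 1 were -0.87 and -0.85. The unadjusted p was under 0.05 in 7 of 14 alternative settings for each. The levels of the high-yield cows in lactation IV were 9.67 and 10.04 for PSMD14 and 9.996 and 10.04 for PSMG2, below the other 6 cows in each case.

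Further 19S genes had differences of similar size without reaching the unadjusted threshold. PSMD11 differed by -0.95, PSMD6 by -0.80 (-0.47 without pair 1), PSMD7 by -0.76, PSMC5 by -0.72 and PSMC3 by -0.67 (limma adjusted p from 0.651 to 0.661). The other kept probe of PSMC3 gave 0.03. PSMD6 and PSMD11 had 1 probe each. PSMD4 differed by 0.76 (limma adjusted p = 0.651), and its other 3 kept probes gave 0.79, 0.81 and 0.57, and its difference was 0.51 without pair 1. PSMD4 was therefore the 19S gene that ran against the group on several probes.

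PSMB10 differed by 1.18 (limma SE 0.41, adjusted p = 0.651), against the direction of the constitutive beta ring. The high-yield cow was 1.85-fold lower in lactation II and 1.23-fold higher in lactation IV, and the difference was 0.81 without pair 1. Its unadjusted p was under 0.05 in 6 of 14 alternative settings. Each of the activators PSME1, PSME2 and PSME4 also had a difference above 0, of 0.75, 0.43 and 0.44, with limma adjusted p of 0.681, 0.761 and 0.704. The other kept PSME4 probes gave 0.04, 0.57 and -0.24, so its sign depended on the probe. For PSME1 and PSME2 the values became 0.21 and 0.19 without pair 1, and the lactation IV sign of PSME1 depended on the dye. PSMA5 was the alpha ring gene with the highest difference, at 0.44, and its other kept probe gave 0.36. The start positions given for these probes in the transcript were 874 and 875, so the other probe adds little separate support. In pair 1 they gave ratios of -0.49 and -0.27.

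Signs were opposite in the lactations for 10 genes. PSMB1, PSMB2, PSMB5, PSMB7, PSMC5, PSMD8, PSMD11 and PSMG2 were above 0 in both pairs of lactation II and below 0 in both of lactation IV, 8 of 45 beside 7.86% of all genes. PSMB10 and PSME1 showed the reverse, 2 of 45 beside 7.11% of all genes. None of these differences passed the adjusted test. The signs were those of pair averages, and for each of the 10 genes the swapped arrays differed in sign in some pair. With the high-yield cow in Cy3, PSMB2 was above 0 in all 4 pairs (1.35, 0.73, 0.08 and 0.17). PSME1 was below 0 in all 4 pairs on these Cy3 arrays (-1.59, -0.60, -0.73 and -0.66). In pair 4 the Cy5 and Cy3 arrays gave -0.67 and 0.58 for PSMB1 and -0.50 and 0.43 for PSMD11.

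**Figure D4:**
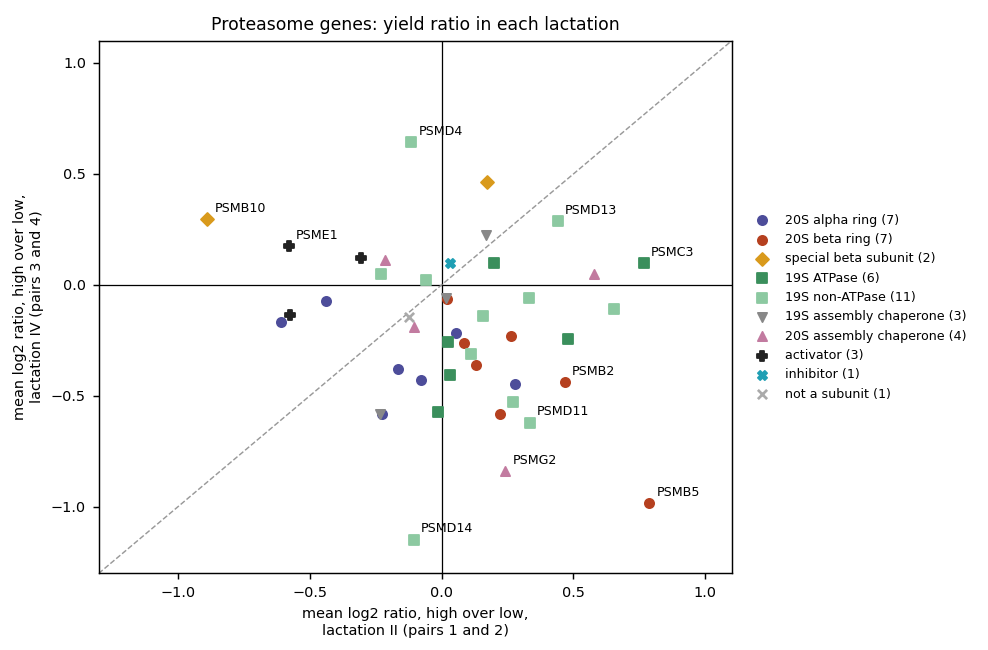
Mean log2 ratio of the high-yield over the low-yield cow in lactation II (horizontal axis) and lactation IV (vertical axis) for the 45 proteasome genes, by role. The dashed line marks equal ratios; the 7 beta ring genes lie below it, with PSMB5 farthest right and low, and PSMB10 and the activators lie above it.

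Genes that share a neighbourhood did not share a pattern in each case. PSMB5 and PSMB11 have probes close together on chromosome 10, at chr10:22117089-22117148 and chr10:22106157-22106216, but differed by -1.77 and 0.29 between lactations. PSME2 and PSME1, at chr10:21287115-21287173 and chr10:21292202-21292261, differed by 0.43 and 0.75. PSMB4 and PSMD4, at chr3:20881953-20882012 and chr3:21068838-21068897, differed by -0.09 and 0.76.

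Other genes of the pathway were given as lists by name. Ubiquitin genes and the enzymes that activate ubiquitin had means below 0 in 5 of 5 kept genes (median -0.23), with 0 at an unadjusted p of 0.05 by limma. UBA1, the main activating enzyme, had ratios of -0.15, -0.59, -0.37 and -0.32. Proteasome-bound and maturation factors, listed together with UCHL3, which is not a proteasome-bound factor (8 kept genes in all), had a median of -0.06 for yield. Their difference between lactations was below 0 in 8 of 8 (median -0.27), beside 46.1% of all genes. SHFM1 and UCHL5 lay near 0, at -0.04 and -0.10, and UCHL5 was 0.47 without pair 1. POMP, which completes the 20S core with the PSMG chaperones, had ratios of -0.14, -0.27, -0.78 and -0.34. UCHL3, a ubiquitin hydrolase, had ratios of 1.40, 0.35, -1.52 and -0.90, a difference of -2.08 (limma adjusted p = 0.651), the same order of pairs as PSMB5.

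Shuttle factors and the p97 unfoldase with its partners (11 kept genes) had a median of 0.05 for yield. Their difference was below 0 in 8 of 11 (median -0.28), beside 46.1% of all genes. In this list UBQLN1, a shuttle factor, had a mean of -0.51 (limma adjusted p = 0.791). The regulators of proteasome genes (10 kept genes) had a median of -0.21 for yield and 0.00556 for the difference. NFE2L1, the factor that restores proteasome genes when activity is low, had ratios of -0.73, 0.21, 0.35 and 0.54. Its relative NFE2L3 had ratios of -3.10, -0.26, 0.89 and 1.52 (difference 2.89, limma adjusted p = 0.651, and 1.47 without pair 1). NFE2L3 was dim in pair 2, with levels of 6.24 and 6.50, and pair 2 is the only lactation II value behind the 1.47. It was well above background in 7 of the 8 channels of high-yield cows. NFYB, a subunit of a CCAAT-binding factor, had a mean of -0.41 (limma adjusted p = 0.791).

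The interferon and class I partners (8 kept genes) stand beside PSMB10 and the PA28 genes. Their median ratio was -1.03, -0.41, 0.11 and -0.21 in pairs 1 to 4. The difference was above 0 in 7 of 8 genes (median 0.52), beside 9768 of all 18125 genes. The exception was PSMB9, the inducible counterpart of PSMB6, with ratios of 2.14, -0.71, -3.49 and -0.56 and a difference of -2.74 (-1.31 without pair 1). B2M, the light chain of class I molecules, had ratios of -1.86, -1.61, -1.04 and -1.23. The median of the T and NK cell markers (14 of 15 kept) moved with PSMB10 in order of pairs, at -0.81, -0.19, 0.14 and -0.06. Against PSMB10, the difference between lactations was below 0 for 3 of the 14: CD2 (-0.48), PRF1 (-0.49) and ZAP70 (-1.09). The summed level of the T and NK cell markers lay between 13.27 and 14.54 in high-yield and between 13.42 and 14.36 in low-yield cows, and CD6 was not kept. Their part in the PSMB10 and PSME1 values was not tested.

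Markers of the epithelium also differed between pairs, beside the beta ring and PSMD14. The 7 milk protein genes had a median ratio of 6.82 in pair 1 and of -0.94, -1.03 and -1.07 in pairs 2 to 4, with a summed level between 19.48 and 22.12 in high-yield and between 15.64 and 20.62 in low-yield cows. The 7 luminal genes had medians of -2.03, -0.25, 0.98 and 0.42, with summed levels between 16.35 and 16.98 and between 15.96 and 17.05. Their part in the proteasome values was not tested. Median differences between lactations were -4.21 for milk protein genes, 1.25 for luminal markers, 0.81 for T and NK cell markers, 0.52 for macrophage markers (9 genes), 0.66 for erythrocyte markers (6 kept), 0.22 for neutrophil markers (6 kept) and -0.21 for fibroblast markers (6 genes). Within these lists the difference was below 0 for 4 of 9 macrophage, 3 of 6 fibroblast, 1 of 6 neutrophil and 0 of 6 erythrocyte genes. The macrophage genes below 0 were CD14 (-1.71), MSR1 (-1.86), CD163 (-0.78) and ITGAM (-0.01). Of the 7 luminal genes, 1 was below 0, ELF5 (-1.47). The milk protein value rested on pair 1. Without it the differences of CSN1S1, CSN1S2, CSN2 and GLYCAM1 were 0.39, 0.55, 0.79 and 0.48. Those of CSN3, LALBA and PAEP were -0.61, -0.59 and -0.55. Luminal differences without pair 1 ranged from -0.84 for KRT18 to 1.54 for KRT7. For yield, erythrocyte markers had a median ratio of 0.70, with 5 of 6 genes above 0 in 4 of 4 pairs, and their part in the proteasome values was not tested.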

How the data were processed

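The deposited scanner files held spot and local background intensity in both dyes, and, per the file headers, came from Feature Extraction 10.10.1.1, together with quality flags and a log10 ratio of Cy5 over Cy3 by the scanner software. The authors also deposited a table of log2 ratios, whose making is not given in the sources used here. Against the scanner ratios, all 8 columns ran high over low (correlations 0.342 to 0.953, medians -0.0352 to 0.0236), and array 1 of pairs 2 and 3 was strongly shrunken (slopes 0.0853 and 0.0881). RNA of 1000 ng per sample was labelled, per the labels' protocols.

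Here mean intensity minus median background was corrected with normexp (offset 50, noise from the 153 negative control spots) and normalised by loess (span 0.3) within arrays, with limma 3.58.1 in R 4.3.3, data.table version 1.17.8, and plots with Python and matplotlib. Outlier spots, 68 to 189 per array, were left out and 0 spots were saturated. Dye-swapped arrays were averaged to 1 value per pair. Probes well above background in at least 6 of 8 channels of either yield group were kept (29867 of 43653, with 22027 to 42481 per channel). The pair was the replicate, and limma's moderated tests were two-sided. The number of arrays limits the precision. Cow levels were rebuilt from ratio and mean intensity after quantile normalisation of the latter.

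The genes described, their groups and the lists of other genes were chosen with earlier results of these data known. Values were given in full for genes with the same sign in 4 of 4 pairs, an unadjusted p under 0.05, the highest or lowest mean of a role group, the catalytic subunits, the activators and PSMB10; the others were added from the same tables after their values were seen. UBB, SEM1, ECM29, KIAA0368, UFD1 and FPR1 were not matched by name, and NPLOC4, MAFK, CD6 and ALAS2 were among those not kept. The fits were tested on simulated data.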

Additional observations from a re-analysis of the deposited data

Results flagged for a closer look

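In 57 groups of 4 values (the pair ratios of the 45 genes, and the levels of the high-yield and of the low-yield cows for 6 of them), the highest or lowest value was set against the others by Dixon's ratio of gap to range at the 95% level. Chance flags about 1 in 20 such groups. This picked out 2 values. The PSMA3 ratio of pair 1 was 0.25, while the other pairs lay between -0.49 and -0.37. The PSMA4 ratio of pair 4 was 0.24, while the other pairs lay between -0.49 and -0.38.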

How the results depend on the processing

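The yield comparison called 0 genes by limma in all 18 alternatives, with 439 to 2692 genes at an unadjusted p of 0.05. The lactation comparison called 6 with median centring in place of loess and 0 to 156 when each pair was left out (156 without pair 2), where the single remaining pair of a lactation is assumed to vary like the others, and 0 in the remaining alternatives, with 458 to 3648 at an unadjusted p of 0.05. None of the 45 proteasome genes was called in either comparison in the 14 alternatives run for them, in which 0 to 5 had an unadjusted p under 0.05 for yield and 0 to 10 for lactation. Median centring moved the median of all genes to -0.14 for yield and 0.15 for the difference. With it the 20S core had a yield median of -0.37 and the 19S regulator of -0.28, and the 19S difference was -0.21. The yield medians turned above 0 without pair 3 (0.0070 and 0.07), and the 19S median did without pair 1 (0.000877) and in the authors' deposited values (0.018). The 20S difference was -0.59 with the high-yield cow in Cy5 only and -0.037 with it in Cy3 only, and ranged from -0.56 to -0.15 when each pair was left out. The beta ring difference was below 0 in 7 of 7 genes in all 14 alternatives (medians from -0.66 to -0.41), the ATPase difference in 5 or 6 of 6, and the alpha ring mean in 5 to 7 of 7. Of 1254 values of single genes, 1174 moved by less than the spread between pairs and 80 moved by more. Settings that changed only the filter could not move the value of a single gene, and naming by accession left the medians of these rings unchanged. Part of the agreement in these counts was therefore fixed in advance. The yield test is paired by its design, and treating the cows as unpaired also called 0 genes. Lactations II and IV share no replicate number, so the second comparison had no pairing. Few pairs and the low dye-swap agreement of pairs 2 and 4 limit every value, and the causes of these changes were not tested.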
